A study of Arabidopsis thaliana and Marchantia polymorpha with 6 samples.

Results

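The events described here are the positions on the V chromosome of the liverwort Marchantia polymorpha that the transcription factor HY5 held in a DAP-seq experiment. They were taken as every event on the sequence named V in the deposited Marchantia HY5 list. V holds 377 events of the 32067 in that list, or 1.18%, and the 3 event lists of the series together hold 55591. V makes up 3.47% of the summed length of the 9 chromosomes, each measured up to its last event.

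DAP-seq (DNA affinity purification sequencing) offers purified genomic DNA, free of chromatin, to a recombinant protein and sequences the fragments that the protein retains. Here DNA of Tak-1 gemmalings, the small plants that grow from gemmae, was extracted at 21 days of age and broken to a mean of 200 bp. It was incubated with the Marchantia protein, made in bacteria and held on amylose beads. The series has 6 samples in 6 groups, with 1 library each. DNA of 10-day-old Arabidopsis Col-0 seedlings was used for AtPIF4, AtHY5 and an input, and Tak-1 DNA for MpPIF, MpHY5 and an input. The list is deposited for the series as a whole and belongs to no single sample in the records used here. It comes without a replicate, so no value below has a replicate error and no test between conditions was possible. The other lists and libraries, both inputs included, do not enter the comparisons.

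HY5, a transcription factor of the bZIP family, drives responses of land plants to light and recognises DNA elements with an ACGT core. Marchantia spends most of its life as a haploid plant whose sex is set by a sex chromosome, U in females and V in males. Tak-1 is a male strain, so its cells carry a single V beside a single copy of each autosome. The V chromosome is known as small, poor in genes and rich in repeated sequence, and it carries genes needed for male reproduction. The list names 8 autosomes, V and 122 unplaced scaffolds. No Marchantia genome or gene positions were used here, so the genes and the sequences at these events are not described. Which genome build the list uses is not given in the sources at hand. Its positions are printed as in the list, counted from 1.

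Events were sparse on V. The chromosome carried 50.3 events per Mb (95% Poisson interval 45.4 to 55.7), and every autosome carried more, from 142 on chromosome 6 to 155 on chromosome 7. Position did not change this. Stretches of the length of V, 7.49 Mb, held 142 to 161 events per Mb when taken at the same coordinates of each autosome. They held 139 to 157 at the far ends of the autosomes and 138 to 158 in their middles. The 23 consecutive stretches of that length that fit into the autosomes ran from 139 to 161, so V lay below all of them. The Poisson intervals cover counting error only, and events close to each other are not independent.

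Along V the events fell into a long sparse part and a short dense end. Of the 15 bins of 0.5 Mb, 13 held fewer events than the bin at the same position of any autosome. The same 13 bins lay under 0.5 times the mean autosomal density of 151 events per Mb, which was true of 0.243% of autosomal bins. These are all the bins before 6.5 Mb, with 8 to 30 events each, against a median of 76 and a range of 31 to 126 in the 412 full autosomal bins. The emptiest were the bin from 3 to 3.5 Mb with 8 events, the bin from 5 to 5.5 Mb with 10 and the bin from 2 to 2.5 Mb with 11. The densest were the last 3. The bin from 6 to 6.5 Mb held 30 events and the next one 75, inside the range of 65 to 93 on the autosomes at that position. The last bin, which ends at the last event and is slightly shorter, held 102 events against 53 to 96 on the autosomes, and so exceeded all 8.

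**Figure D1:**
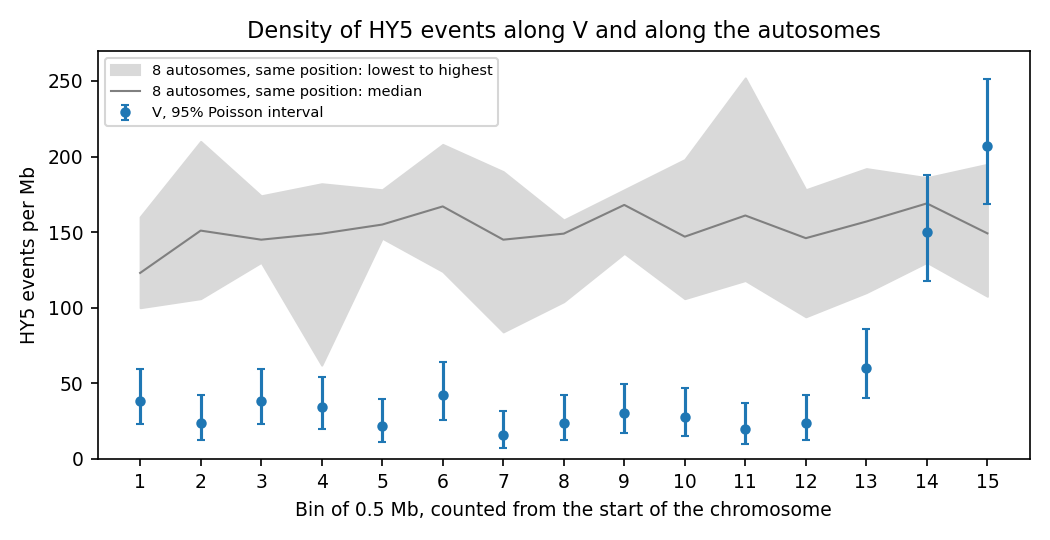
Density of HY5 events in bins of 0.5 Mb from the start of the chromosome, in events per Mb, for V (points with 95% Poisson intervals) and for the same positions of the 8 autosomes (band from lowest to highest, line at the median). The first 13 V points lie below the band, the 14th inside it and the 15th, at 207 events per Mb, above it.

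The boundary at 6.5 Mb was chosen from these bins, after their counts were seen, and is used below only to describe. Before it lay 200 events at 30.8 per Mb (26.7 to 35.3), and after it 177 events at 178 per Mb (153 to 207). The end thus held 46.9% of the V events in 13.2% of its length. At the same coordinates the autosomes carried 131 to 179 events per Mb, and in their own final stretches of that length 117 to 176. Within the part before 6.5 Mb the variance to mean ratio of the counts per bin was 2.24, inside the 1.64 to 3.33 of whole autosomes. Autosomal stretches before 6.5 Mb gave 1.20 to 6.20. The V bins there hold fewer events, and at an equal ratio lower counts vary more relative to their mean. Over all 14 full bins of V the ratio was 14.5. A ratio of 1 is what randomly placed events would give.

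The lowest score on V was higher than on any autosome. The caller gives each event a score, whose scale is not stated, and every V event scored at least 78 (the lowest lies at 3880455 to 3880654). The lowest scores on the autosomes were 53 to 56, and 42.0% of autosomal events scored under 78. The list therefore counts weaker events on autosomes than on V, and why is not recorded in the sources used here. The end of V is also affected. Among events of score 78 or more, the autosomes carried 77.6 to 96.7 per Mb at its coordinates and 66.5 to 107 in their own final stretches, all below the 178 per Mb of the V end. Over whole chromosomes the autosomes then carried 82.6 to 91.1 per Mb, and their mean density was 1.74 times that of V instead of 3.0 times. Against V before 6.5 Mb it was 2.85 times as high. V stayed below every autosome at that common score, but by less than the full list shows.

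The gap between V and the autosomes narrowed further among stronger events and turned at the top. At or above a score of 118.7, which marks the highest 25% of the list, V carried 28.4 events per Mb (24.7 to 32.5) and the autosomes 33.7 to 41.1. The mean autosomal density was there 1.29 times that of V, against 1.74 times at 78. Against V before 6.5 Mb little had changed at that score, with 2.71 times against 2.85 times. There the gap narrowed at higher scores, to 2.03 times in the highest 10% and 1.56 times in the highest 1%. The last value rests on 4 V events. At or above 180.4, the limit of the highest 10%, V carried 13.2 (10.7 to 16.1) and lay inside the autosomal range of 13.0 to 16.4. At or above 449, the limit of the highest 1%, V carried 4.40 (3.03 to 6.19) and exceeded the autosomal range of 0.405 to 1.59. The turn came from the end of V. Before 6.5 Mb the chromosome carried 0.615 such events per Mb (0.168 to 1.58), inside the autosomal range, and 29 of the 33 V events at that level lay after it.

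**Figure D2:**
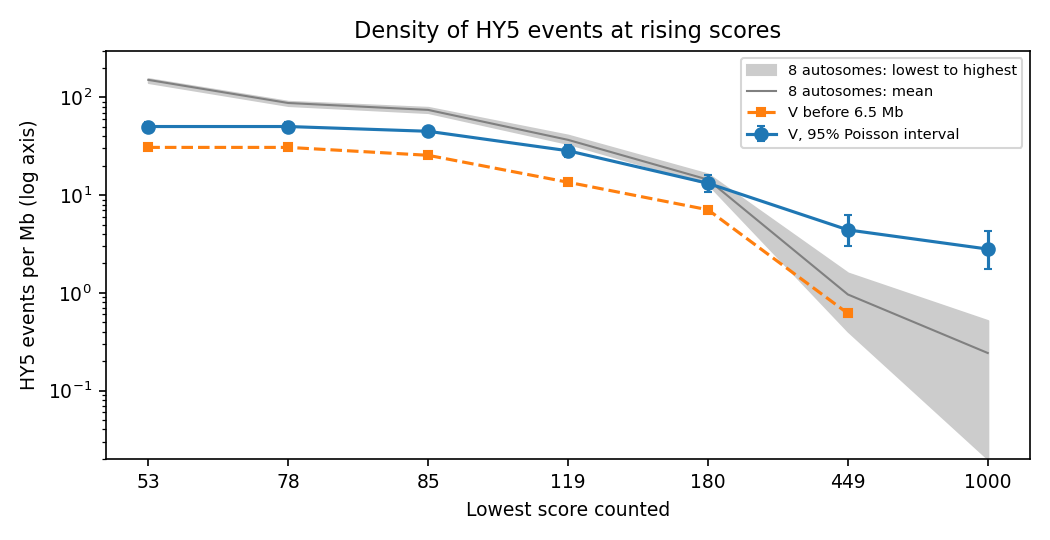
Density of events at or above rising scores, on a log axis, for V (circles with 95% Poisson intervals), for V before 6.5 Mb (squares) and for the 8 autosomes (band from lowest to highest, line at the mean). The band reaches the bottom of the axis at a score of 1000 because an autosome has 0 such events, and V before 6.5 Mb has no point there because it also has 0. V lies below the band at low scores and above it at 449 and 1000.

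Scores on V were higher than on the autosomes in the list as deposited. The median was 126 (interval of the median 120 to 133), against 81.8 to 89 on the autosomes. Of the V events, 98 were in the highest 10% of the list, or 26.0% (exact binomial interval 21.6 to 30.7), against 9.49% of autosomal events and 8.38% to 11.3% on single autosomes. With scores under 78 left out everywhere, the autosomal medians were 108 to 113 and their shares in the highest 10% were 14.8% to 18.0%, still below V. Before 6.5 Mb the V median was 111, and autosomal stretches of the same coordinates had medians of 107 to 115 once scores under 78 were left out. The typical event of the sparse part thus scored within the autosomal range at a common lowest score. Its share in the highest 10% was 23.0%, against 12.0% to 20.4% in those stretches.

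The strongest events of V all lay in its last 0.5 Mb. A score above 1000 was reached by 21 V events, or 5.57%, against 0.162% of autosomal events, and single autosomes had 0 to 14 of them. All 21 fell between 7136443 and 7492679, where they held 45.8% of the summed score of V. The autosomes had 51 such events in all, of which 30 lay within 1 Mb of a chromosome end, 15 of them in the last 1 Mb. The share of all autosomal events within 1 Mb of an end was not counted. On chromosome 1 all 12 were near the start, up to a centre of 159618, while chromosome 2 had 0 and none of the 5 on chromosome 8 was near an end. The 10 highest events of V held 30.5% of its summed score, against 1.36% to 5.79% on whole autosomes and 3.85% to 19.7% in stretches of the same coordinates. These stretches hold more events than V, which lowers the share of any 10. The end of V, with 177 events, had 42.5% in its 10 highest, inside the 15.5% to 52.9% of the autosomal ends with 116 to 175 events. Summed over all events, the score per Mb of V was 14046 and that of the autosomes 15580 to 17341. The mean autosome had 1.16 times the value of V. Before 6.5 Mb the summed score per Mb of V was 4573, and the mean autosome had 3.57 times that. The autosomal sums include events under 78, which V lacks, so both ratios would be lower at a common lowest score. They were not recomputed there, and whether the mean autosome would still exceed V was not computed.

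**Figure D3:**
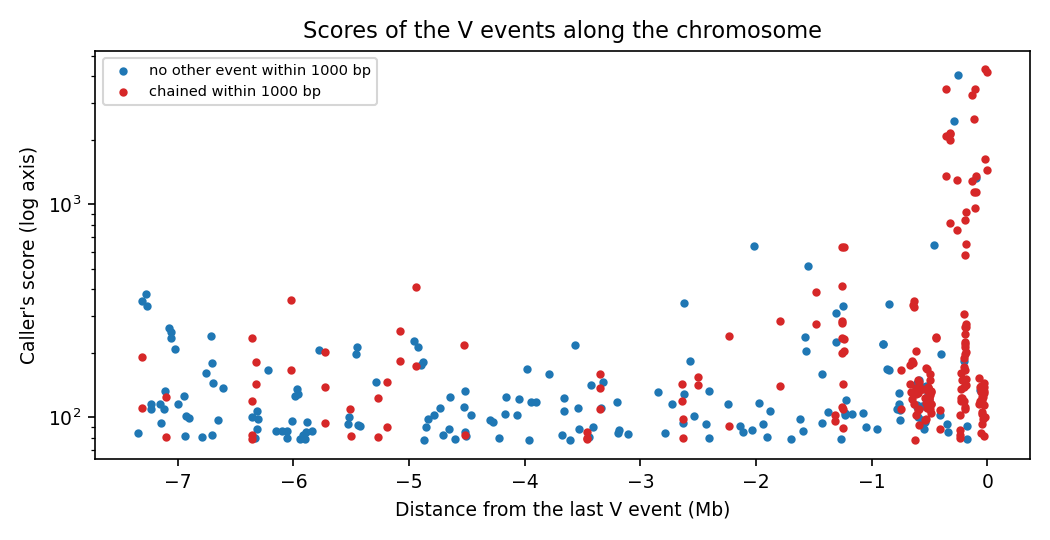
Score of each of the 377 V events, on a log axis, against its distance from the last V event in Mb. Red points are chained to another event within 1000 bp and blue points are not. All 21 scores above 1000 stand at the right, within 356 kb of the last event.

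The highest V event, at 7476574 to 7476773, had a score of 4315 and ranked 15th in the whole list. It was followed by the event at 7492309 to 7492508 with 4184, the event at 7237815 to 7238014 with 4061 and the event at 7388981 to 7389180 with 3500. The next 3 were those at 7136533 to 7136732 with 3482, at 7363417 to 7363616 with 3268 and at 7379148 to 7379347 with 2534. The last of the 10 were those at 7204592 to 7204791 with 2459, at 7167412 to 7167611 with 2168 and at 7167419 to 7167618 with 2143. The final 2 have centres only 7 bp apart, so they may not be separate sites. Of the 50 highest events of the list, 6 lay on V, 13 on autosomes and 31 on unplaced scaffolds.

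Most of these strong events had a close neighbour, as did most events of the end of V. Of the 21 above 1000, 18 were chained to another event within 1000 bp, and of all 177 events after 6.5 Mb 77.4% were. A spacing of exactly 171 bp occurred 5 times on V, each time between strong events, and a spacing of 164 bp occurred in a similar pair. At 7476574 to 7476944 the left event of the pair scored 4315 and the right one 1637. At 7492309 to 7492679 they scored 4184 and 1455, and at 7136533 to 7136903 they scored 3482 and 2090. In these 3 pairs the left event was the higher, by 1.67 to 2.88 times. In the other 3 the right event was the higher: 1288 and 3268 at 7363246 to 7363616, 964 and 3500 at 7388810 to 7389180, and 1147 and 2534 at 7378984 to 7379347, the pair 164 bp apart. Of the 5 distances between successive pairs, from left centre to left centre, 2 were alike. They were 15738 bp from 7363345 to 7379083 and 15735 bp from 7476673 to 7492408. The others were 226713, 9826 and 87764 bp.

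Empty stretches were wide on V. The first event had its centre at 149 kb, while the first autosomal events lay at 5.41 to 25 kb. The widest gap between neighbouring events ran for 259 kb from the centre at 4384970 to that at 4644246. Gaps of 250 kb, 197 kb, 165 kb and 162 kb followed, which began at 882110, 1769764, 5087644 and 3031722. Of the V gaps, 12 exceeded 100 kb, all before 6.5 Mb. The widest autosomal gaps were 85.1 to 113 kb, and 3 autosomes had a single gap over 100 kb while the others had 0. Gaps over 50 kb covered 58.5% of V and 2.33% to 5.40% of each autosome. The V event farthest from its neighbours, at 3701399 to 3701598, had 112 kb free on one side and 114 kb on the other, and its score of 159 was higher than 86.7% of the list. The next most isolated stood at 5793452 to 5793651 with a score of 79.4, at 4384871 to 4385070 with 83.7, at 1269692 to 1269891 with 167 and at 4644147 to 4644346 with 131. They were free of neighbours for 62.7 to 81.8 kb, and their scores ran from near the lowest on V to above its median.

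Despite the low density, the median spacing of V lay within the autosomal range, at 3892 bp (interval of the median 2932 to 5633) against 3707 to 4228 bp. That holds for the list as deposited. With only scores of 78 or more the autosomal medians were 6459 to 7183 bp, and V lay below them. The mean spacing was 19532 bp against 6426 to 7041 bp. To allow for the overall density, each spacing was divided by the mean spacing of its own chromosome. These scaled spacings are those of the list as deposited and were not recomputed with scores under 78 left out. The median was then 0.20 on V and 0.57 to 0.61 on the autosomes, and spacings under 0.1 times the mean made up 38.0% on V and 12.5% to 14.9% on the autosomes. Stretches at the same coordinates as V gave 13.5% to 16.2%. Spacings over 3 times the mean were also more frequent, at 9.57% against 6.13% to 6.70%. These shares mix the sparse part and the dense end, whose median spacings were 16391 bp and 1202 bp. Each part was then divided by its own mean spacing. The median stayed lower in the end, at 0.22 against 0.49 to 0.67 in the autosomal ends. In the sparse part it was 0.52, against 0.56 to 0.67 on the autosomes before 6.5 Mb. The shares of very short and very wide spacings differed less. The end had 15.9% of spacings under 0.1 times its mean, inside the 10.9% to 19.9% of the autosomal ends. The sparse part had 7.04% over 3 times its mean, inside the 5.91% to 7.33% of the autosomes before 6.5 Mb. Its share under 0.1 times its mean remained higher, at 25.6% against 12.7% to 16.4%. The end had 8.52% over 3 times its mean, just above the 5.13% to 8.27% of the autosomal ends and inside the 4.65% to 9.09% at the same coordinates.

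**Figure D4:**
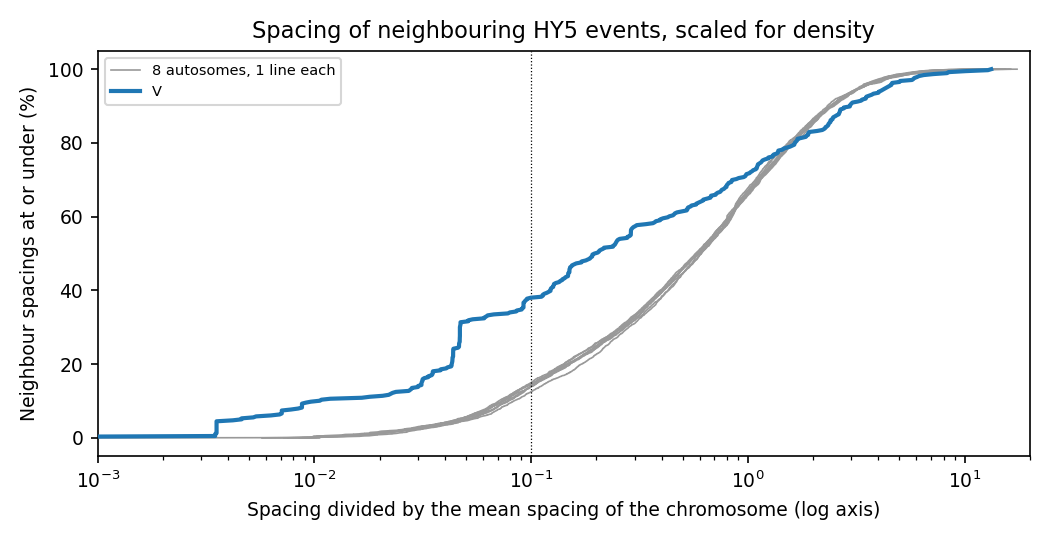
Cumulative share of neighbour spacings, divided by the mean spacing of the same chromosome and drawn on a log axis, for V (blue) and for each autosome (grey). The dotted line marks 0.1 times the mean, where V stands at 38.0% and the autosomes at 12.5% to 14.9%.

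Events chained within 1000 bp of each other made up 52.3% of V events, 197 of 377 (exact binomial interval 47.1 to 57.4), against 36.6% of autosomal events and 34.0% to 38.4% on single autosomes. With a chaining distance of 0.1 times the mean spacing of each chromosome the shares were 58.9% and 24.3% to 28.3%. Chained events were concentrated at the end, where they made up 77.4%. Before 6.5 Mb 30.0% were, which is less than on any whole autosome. At a common lowest score of 78 the autosomal shares were 21.5% to 25.3%, so the sparse part was then above them. With a chaining distance of 0.1 times the mean spacing of the part itself, the sparse part had 40% against 24.0% to 30.8% on the autosomes before 6.5 Mb. On that scale the end had 29.4%, inside the 20.5% to 35.0% of the autosomal ends. Shares at scaled distances were not recomputed with scores under 78 left out. How either part compares with the autosomes thus depends on the lowest score counted or on the chaining distance.

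V had 79 chains, of which 50 were pairs, 22 had 3 events and 7 had 4 or more, and 53 of the 79 lay after 6.5 Mb. Of the 7 longest, the chain at 1134888 to 1136879 was the only one in the sparse part, with 4 events of scores from 79 to 235. The longest had 6 events, at 7301496 to 7304148, with scores from 112 to 848, and the next had 5, at 7306159 to 7308195, with 142 to 919. The chain with the highest summed score, 7136, had 4 events at 7166321 to 7167618 with scores from 820 to 2168. The other chains of 4 lay at 6856580 to 6857055, at 7294976 to 7296165 and at 7462504 to 7464665, and the highest score in them was 353. The second highest summed score, 6938, came from 3 events at 7136443 to 7136903. Pairs with summed scores of 5952, 5639 and 4556, all of the 171 bp kind, followed. On V, chained events had a median score of 139 and isolated ones 110, while on the autosomes the medians of these classes differed by -1.4 to 3.0. The contrast on V was wider before 6.5 Mb, with medians of 143 and 105, than after it, with 137 and 129.

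Many V events recurred at fixed distances. Of the 231 neighbour spacings up to 10 kb, 64 had an exact length in bp that occurred at least 3 times on V, or 27.7%. On whole autosomes, with 2515 to 3757 such spacings each and so more room for equal values, the share was 11.3% over all 8. In autosomal stretches at the coordinates of V it was 0.938% to 3.85%. After 6.5 Mb the share was 32.5%, and before it 11.3%, against 0.679% to 3.05% in autosomal stretches before 6.5 Mb. With a tolerance of 5 bp, 14 spacings recurred 3 times or more on V and took in 102 of the 231, 83 of them after 6.5 Mb.

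The most frequent were spacings of 914 to 922 bp, found 21 times, all after 6.5 Mb, with 11 of exactly 916 bp. Spacings of 68 or 69 bp occurred 16 times, 10 of them after 6.5 Mb, and 13 were exactly 69 bp. A spacing of 1800 or 1801 bp occurred 6 times. Fixed spacings also linked events that were not neighbours. Distances of 4657 to 4665 bp joined 17 pairs of V events, all after 6.5 Mb, and the higher score of such a pair exceeded the lower by 1.02 to 1.47 times, with a median of 1.16. The chains of 6 and of 5 events lie at this distance from each other. Their centres at 7302511 and 7307174, 4663 bp apart, scored 848 and 919, and those at 7301595 and 7306258, also 4663 bp apart, scored 580 and 654. Scores at this distance were not compared with those at other distances, and some of the pairs lie in runs where most scores are alike. The distance was chosen for being frequent on V, and pairs at this distance were not counted on the autosomes.

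Chaining V events at up to 10 kb gave 6 runs of 10 or more events, a description added after seeing the data, and 5 of them lay after 6.5 Mb. The run at 6948124 to 7007596 was the largest, with 34 events over 59.3 kb and scores from 88 to 171. The run at 7416604 to 7476944 held 29 events over 60.1 kb, where spacings near 916 bp led with 10, and it ended in the strongest pair of V. The run at 7287967 to 7320371 held 26 events over 32.2 kb, with 69 bp as the leading spacing, found 7 times. The others, at 6867583 to 6904782, at 7256506 to 7272257 and at 6234145 to 6272246, held 19, 10 and 17 events. In 5 of the 6 runs no score exceeded 1000. Such runs were not counted on the autosomes, so they are not shown to be particular to V. The upper quartile of spacings on whole autosomes was 8116.5 to 9504 bp, so most autosomal neighbours also lay within 10 kb.

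A spacing of 5642 bp linked V to the autosomes. It occurred exactly 4 times on V, 3 of them before 6.5 Mb, and within 5 bp 232 times on the 8 autosomes, with 22 to 38 on each. On chromosome 1, 27 of its 38 cases were exactly 5642 bp. Its 4 cases on V are 1.73% of spacings up to 10 kb there against 0.938% on the autosomes. The spacings near 916 bp were 9.09% of those on V, in the window from 914 to 922 bp, and 0.186% of autosomal ones within 5 bp of 918 bp. These 14 values were chosen for recurring on V, so their higher shares on V are a description and not a test.

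**Figure D5:**
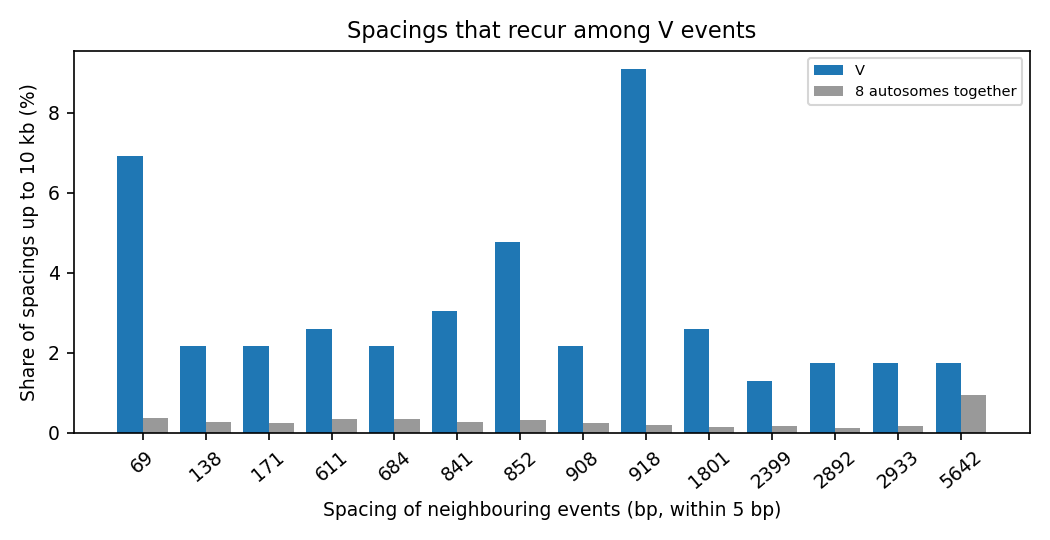
Share of neighbour spacings up to 10 kb that fall within 5 bp of each value recurring on V, for V (blue) and for the 8 autosomes together (grey), in percent. The values were chosen on V, and the bars at 918 and 69 bp are the highest on V, at 9.09% and 6.93%.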

How the data were processed

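The members and the measures were chosen with earlier results of these data known. The submitters' processing notes name Trim Galore and Bowtie2, without versions, and TAIR10 as the build of all samples. That is a build of Arabidopsis, and the chromosome names of the Marchantia list differ from it. Per the file headers, events were called with GEM, which places each event at a single base. The deposited list gives an interval of 200 bp and a score for each event, and how the authors' score was normalized is not stated. It was used only to rank and describe events within this list. The list holds no read counts, so the depth behind an event is unknown.

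Python 3.11.15, numpy 2.4.6, pandas 2.3.3, scipy 1.17.1 and matplotlib 3.10.9 were used. Chromosome lengths run to the last event. Counts were made in bins of 0.5 Mb, and neighbours were chained at 1000 bp. Densities have exact 95% Poisson intervals, shares have exact binomial (Clopper-Pearson) intervals and medians have intervals from order statistics. All cover counting error only. The functions were checked on simulated positions. Events were named by rule: the 10 highest scores and the lowest, chains of 4 or more events and the 5 of highest summed score, the 5 widest gaps, the 5 most isolated events, the 3 densest and 3 emptiest bins, and spacings that recur. Analyses of genes and of motifs had been planned for the case that a genome was at hand and were not run.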

Additional observations from a re-analysis of the deposited data

Results flagged for a closer look

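The unplaced scaffolds of the list, which entered no comparison with V, held 219 events on 122 sequences. They are listed here because 66 of these events scored above 1000, more than the 21 on V and the 51 on the 8 autosomes. They also held 11 pairs of neighbouring events 171 bp apart, the spacing of the strong V pairs, and each of the 11 had a member above 1000, with the higher score between 3184 and 5292. On the autosomes 60 neighbours were within 5 bp of that spacing, and 5 of them had such a member. Whether these scaffolds belong to V was not tested.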

How the results depend on the processing

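The 8 measures of V were recomputed in 44 ways, 28 planned and 16 added after seeing the data. In 22 the value stayed within the interval of the main value (for the bins and the variance to mean ratio, within 1.5 times), in 21 it moved beyond and in 1 it turned. The 22 include changes that touch only the autosomes and so could not move the value of V. With a common lowest score of 78 this holds for most of the measures. The count also leaves out some shifts against the autosomes: at 78 the median spacing of V went from inside their range to below it. Without the events after 6.5 Mb (added), the density was 30.8 per Mb, the autosomal ratio 4.91, the variance to mean ratio 2.24, the median spacing 16391 bp and the median score 111, and the chained share turned from above the autosomes to 30.0%, below them. With a common lowest score of 78 (added), the autosomal ratio was 1.74. For events above the median score and in the highest 25%, the V density was 45.0 and 28.4 per Mb and the ratio 1.65 and 1.29. Counting each chain as 1 event gave a ratio of 3.49, and stretches at other positions 2.98 to 3.0. Bins of 0.25 Mb put 26 of 30 below the limit, and bins of 1 Mb put 6 of 8 below it with a variance to mean ratio of 22.2. Chaining at 500 bp gave 23.9%, at 2000 bp 58.9% and at 0.1 times the mean spacing 58.9%, all above the autosomes. Isolated events had a median score of 110. Shares of V in the highest 1%, 25% and 50% of scores were 8.75%, 56.5% and 89.4%. Lengths of the full sequences were not used here. No paired analysis was possible because each group has 1 library.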

Other observations

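The list is not sorted by score, although its order follows the score closely (Spearman's rho 0.94 over 32067 events, events not being independent). Of the 33 V events in the highest 1% of scores, 19 stood in the first 1% of the list and 2 in rows past its middle. The last of them, at 7166785 to 7166984, scored 820 and stood in row 24171. Of the 204 autosomal events in the highest 1%, 6 stood past the middle. What the order of the list ranks is not stated.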
